A study of Mus musculus with 116 samples.

Results

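The 10 genes described here, of 53379 in the deposited tables, encode AP-1 transcription factor subunits and other products of immediate early genes: Fos, Fosb, Fosl1, Fosl2, Jun, Junb, Jund, Atf3, Egr1 and Ier2. They were listed with results of these data in view. The list was chosen on the measured rise of Atf3 in green Eed-MADM cells against control-MADM at E16.5, so values of that comparison are given as a description with no test. Values are counts of reads per gene without regard to strand, scaled to reads per 1000000 by the TMM method (CPM), in the 92 of 116 libraries with at least 1000000 uniquely aligned reads that made up at least 60% of all reads. The used library nearest to the share limit had 60.01% uniquely aligned reads and the nearest one left out under it had 55.9%. The nearest values at the read limit were 1157701 and 939352 reads.

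AP-1 is a dimer of basic leucine zipper proteins. Jun proteins pair with each other or with Fos proteins, while Fos proteins bind DNA only as a partner of another family. Immediate early genes are transcribed within minutes of a signal such as synaptic activity, a growth factor or cell damage, without new protein synthesis, and their mRNAs decay quickly. In brain tissue they are used as marks of neuronal activity, and they are also known to be induced while tissue is warmed and dissociated into single cells.

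The cells came from the neocortex of mice labelled as strain CD1 with MADM cassettes on chromosome 7 (MADM7-GT/TG;Emx1-cre), in which Cre is made in progenitors of the dorsal telencephalon and marks sparse cells green, red or yellow. In control-MADM every color is Eed+/+. In Eed-MADM the cortex around the labelled cells is heterozygous, and the genotype follows the color: Eed-/- in green, Eed+/- in yellow and Eed+/+ in red. In cKO-Eed-MADM the cortex and all colors are Eed-/-. Eed is a core subunit of PRC2, the complex that methylates lysine 27 of histone H3. In all groups green cells carry 2 paternal and red cells 2 maternal copies of chromosome 7, where Fosb and Eed lie. Each library pooled cortices of several animals that were digested with papain at 37 °C and sorted at 4 °C, so that p-values measure the spread between pools, which the labels do not tie to litters or days. E12.5 cells were sorted into lysis buffer and cells of E13.5, E16.5 and P0 into RNA extraction buffer, so the step from E12.5 to E13.5 cannot be told apart from the change of collection. With control-MADM first, Eed-MADM next and cKO-Eed-MADM last, the 55 green libraries used were split as 5, 8 and 4 for E12.5, 2, 2 and 4 for E13.5, 3, 5 and 4 for E16.5, and 5, 9 and 4 for P0.

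Libraries held 865832 to 2359317 reads on genes at E12.5 (27 libraries), 3055843 to 6350596 at E13.5 (18), 3348693 to 7249098 at E16.5 (18) and 2784557 to 6275743 at P0 (29). The targeted gene Eed had 41.3 ± 9.40, 17.8 ± 4.32 and 18.8 ± 5.94 CPM (SD, n = 3, 5 and 4) in green cells at E16.5, with control-MADM first, then Eed-MADM, then cKO-Eed-MADM, and 29.6 ± 3.06, 15.4 ± 3.14 and 11.7 ± 3.59 CPM (SD, n = 5, 9 and 4) at P0, with no overlap between control-MADM and either other group. Reads outside the deleted exons remain in these counts. All 8 cortical projection neuron markers were detected in every green group, with sums of 9371 to 10704 CPM in control-MADM and 7364 to 8559 CPM in cKO-Eed-MADM at E16.5, and 4319.7 to 8977 and 2017 to 5048 CPM at P0. In bulk samples, fewer cells of a type and less RNA per cell cannot be told apart. At P0, replicate 2 of control-MADM yellow cells and replicate 1 of cKO-Eed-MADM red cells stood apart with 13181 and 13133 detected genes.

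Promoters are shown for Fos, Fosb and Junb, called higher in cKO-Eed-MADM against Eed-MADM at both E16.5 and P0, and for Atf3, called at P0. They are shown because signal-responsive elements sit close to the start of these genes. RefSeq (GRCm38.p6) held 250 bases before and 50 bases after the start of 7 of the 10 members: Fos, Fosb, Fosl2, Jun, Junb, Jund and Atf3. Capitals mark matches to TGACG, the core of the cyclic AMP response element, to TATAAA, the TATA box, and to GCGGGGGCG, a site for EGR proteins, each searched on both strands (the reverse of TGACG reads CGTCA).
Fos (chr12:85473640-85473939, forward strand): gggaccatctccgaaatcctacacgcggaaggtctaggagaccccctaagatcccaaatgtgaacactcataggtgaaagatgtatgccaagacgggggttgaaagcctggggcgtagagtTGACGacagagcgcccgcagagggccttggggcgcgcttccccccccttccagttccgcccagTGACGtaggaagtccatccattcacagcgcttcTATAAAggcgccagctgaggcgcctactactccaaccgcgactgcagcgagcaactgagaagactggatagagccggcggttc
Fosb (chr7:19309996-19310295, reverse strand): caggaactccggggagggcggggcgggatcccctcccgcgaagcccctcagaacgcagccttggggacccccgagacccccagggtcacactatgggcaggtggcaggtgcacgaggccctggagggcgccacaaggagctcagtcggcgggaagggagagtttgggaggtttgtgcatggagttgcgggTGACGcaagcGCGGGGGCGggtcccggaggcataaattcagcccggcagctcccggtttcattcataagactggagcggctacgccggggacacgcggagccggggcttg
Junb (chr8:84978699-84978998, reverse strand): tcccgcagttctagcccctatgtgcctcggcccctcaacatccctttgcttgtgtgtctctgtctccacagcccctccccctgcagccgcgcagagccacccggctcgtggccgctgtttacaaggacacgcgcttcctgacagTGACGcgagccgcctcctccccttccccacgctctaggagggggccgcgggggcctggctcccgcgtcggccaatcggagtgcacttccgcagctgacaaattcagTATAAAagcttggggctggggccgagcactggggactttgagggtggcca
Atf3 (chr1:191183284-191183583, reverse strand): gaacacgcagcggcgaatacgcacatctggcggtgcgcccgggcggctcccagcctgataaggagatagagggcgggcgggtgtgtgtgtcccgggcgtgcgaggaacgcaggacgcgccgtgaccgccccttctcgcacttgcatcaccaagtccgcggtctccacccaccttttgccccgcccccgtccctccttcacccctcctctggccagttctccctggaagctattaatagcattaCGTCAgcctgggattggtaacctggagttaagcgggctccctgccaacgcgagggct
Fos held TGACG at 125 to 129 and at 62 to 66 bases before its start and TATAAA at 28 to 33 bases before it. Fosb held TGACG 56 to 60 and GCGGGGGCG 42 to 50 bases before its start. Junb held TGACG 102 to 106 bases before its RefSeq start and TATAAA from that start on, which lies before the start of its GENCODE gene. Atf3 held TGACG on the other strand 3 to 7 bases before the start, which in RefSeq lies inside the longer GENCODE gene. Among the other matched members, Fosl2 held GCGGGGGCG 71 to 79 bases before its RefSeq start, which also lies inside the GENCODE gene. Jun and Jund held no exact match to these motifs. The Jund window lies wholly before the GENCODE gene used for the counts, so this holds for the RefSeq start alone. The window held TGACG in 20.8% of the 32851 RefSeq promoters searched, TATAAA in 13.6% and GCGGGGGCG in 2.91%. None of the windows of the 7 matched members held TGACTCA, the consensus AP-1 site (5.2% of the promoters searched), TGACGTCA, the full cyclic AMP response element, which contains TGACG (1.79%), or a CArG box, the site of serum response factor (1.63%). Variants of these sites, such as TGACATCA in the Jun window, were not counted. Egr1, Fosl1 and Ier2 were not searched, nor were bases farther than 250 before any start, so sites beyond the windows would be missed.

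In green control-MADM cells, Fos became the most abundant member per length at E16.5. Read per kilobase of exon, the levels at E12.5 were led by Ier2 (137 CPM per kb), Jun (129.8) and Jund (112), with Fos at 58.1. At E16.5 Fos stood at 649.9 CPM per kb, ahead of Jund (219.7), Ier2 (202) and Jun (142), and at P0 it stood at 353, ahead of Ier2 (267) and Egr1 (201). Fosl1, Fosl2 and Atf3 were at most 5.38 CPM per kb in control-MADM at any age.

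In control-MADM, Fos read 74.6, 118, 133, 148 and 209.6 CPM in the 5 libraries of E12.5 and 251 and 392 CPM in the 2 of E13.5. It read 1346, 1393 and 1847 CPM at E16.5, and the 5 libraries of P0 held 735, 786, 793, 809 and 1026 CPM. The E16.5 libraries lay above all libraries of the other ages. From E13.5 to E16.5 Fos rose by 2.21 ± 0.56 on the log2 scale (edgeR adjusted p = 0.00737) and Fosb by 1.90 ± 0.59 (edgeR adjusted p = 0.0321). From E16.5 to P0 Egr1, an activity-regulated zinc finger factor, rose by 2.07 ± 0.48 (edgeR adjusted p = 0.00404) and Fosb changed by -1.96 ± 0.43 (edgeR adjusted p = 0.00199). Atf3, which had no read in the E16.5 controls, is given there as a description, since these libraries chose the list. Of the other 8 tested members, 2 were called higher and 0 lower from E13.5 to E16.5, where 4.59% and 4.61% of 13519 genes were, and 1 higher and 1 lower from E16.5 to P0, where 4.71% and 2.86% were. From E12.5 to E13.5 edgeR called no member, although 19.7% of all genes were called and 3 members had an unadjusted p under 0.05, and DESeq2 called 0 as well. The E13.5 controls were 2 libraries: without replicate 1 or 3 none of these 8 was called from E13.5 to E16.5, with Fos at an edgeR adjusted p of 0.0721 and 0.0721. The Fosb call of that step was also lost without E16.5 replicate 1 or 3.

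**Figure D1:**
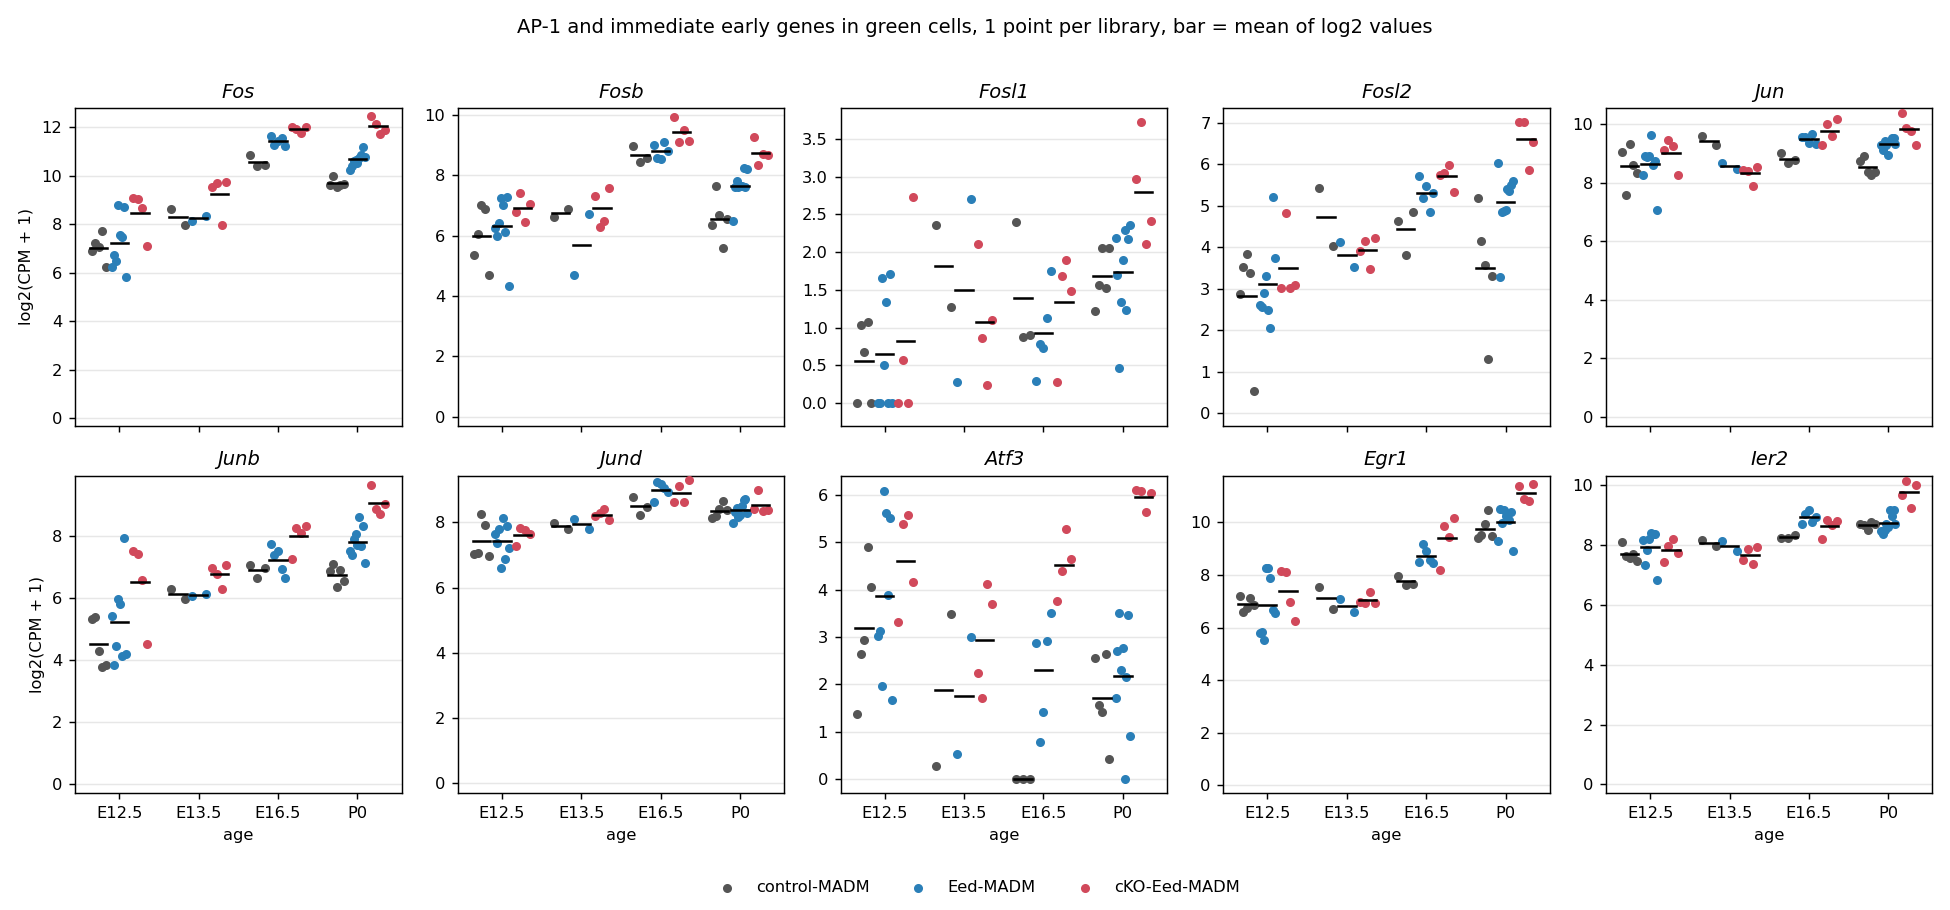
Levels of the 10 members in green cells on a log2(CPM + 1) axis against age, with 1 point per library and a bar at the mean of each group's log2 values. Fos in cKO-Eed-MADM sits above every control-MADM library at E16.5 and P0, and Atf3 lies at 0 in the 3 control-MADM libraries of E16.5.

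Tissue-wide loss of Eed came with higher levels of most members at E16.5 and P0. In green cKO-Eed-MADM cells against control-MADM, edgeR's quasi-likelihood test with Benjamini-Hochberg adjustment over all genes called 6 of the 8 tested members other than Atf3 higher at E16.5 and none lower, where 6.16% of 13359 genes were called higher, and 8 of 10 members higher at P0 and none lower, where 14.2% of 14161 genes were. Fos, Fosb, Fosl2, Jun, Junb and Egr1 were called at both ages and Atf3 and Ier2 at P0. The E16.5 controls of Atf3 also chose the list, so its value at that age is a description with no test. Jund was called at neither age, and Fosl1 was too low to be tested at E16.5. The members' median log2 fold change was 1.19 at E16.5, with Atf3 at its fitted value or at its lower bound, and 1.80 at P0, against 0.0011 and -0.0078 over all genes tested.

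Levels in cells of the same genotype, Eed-/-, differed with the tissue around them. Green Eed-/- cells of cKO-Eed-MADM were compared with those of Eed-MADM. At E16.5, 3 of the 8 tested members other than Atf3 were called higher in cKO-Eed-MADM (Fos, Fosb and Junb), where 4.45% of all genes were. Atf3 is a description there, since the Eed-MADM libraries of E16.5 also chose the list. At P0, 8 of 10 members were called higher (all but Fosl1 and Jund), where 11.2% of all genes were. The member medians were 0.52 (with Atf3) and 1.14 and the all-gene medians 0.01 and -0.01. Against control-MADM, green Eed-MADM cells had 3 of 10 members called higher at P0 (Fos, Jun and Junb), where 1.52% of all genes were, with a member median of 0.78. At E16.5, where Atf3 chose the list, the members' median was 0.67 and all 9 members that passed the filter lay above 0. There, every Eed-MADM library lay above every control-MADM library for Fos, Jun, Atf3, Egr1 and Ier2, an order found for 3.78% of all genes tested. The 3 comparisons of an age share their libraries, so their counts are not independent of each other.

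**Figure D2:**
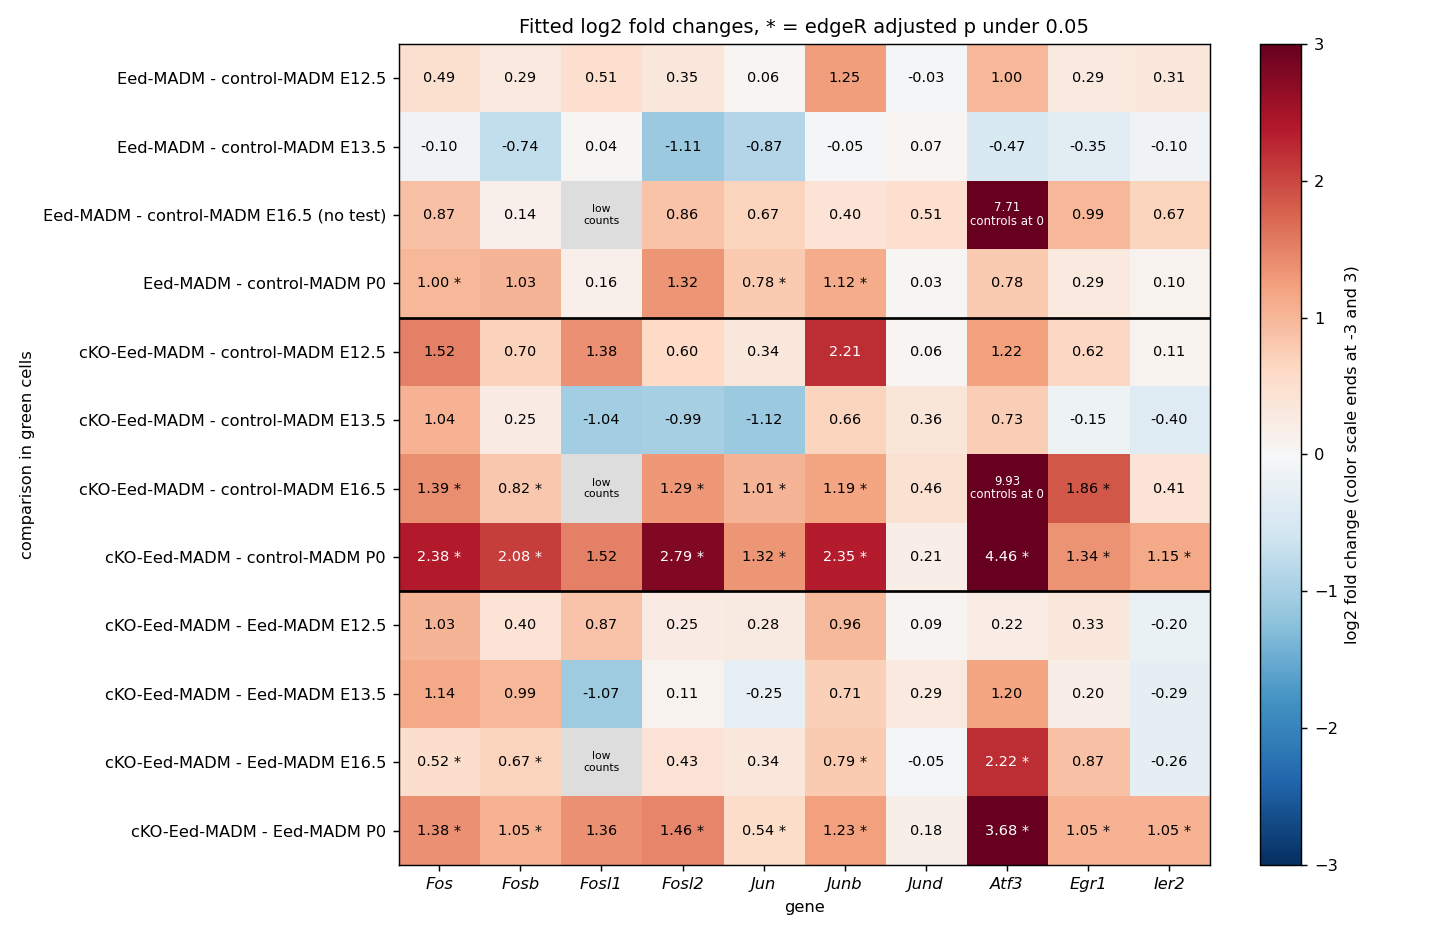
Fitted log2 fold changes of the 10 members (columns) in the comparisons of green cells at each age (rows), with a color scale from -3 to 3 and a star for an edgeR adjusted p under 0.05. Stars appear in the E16.5 and P0 rows and none in those of E12.5 and E13.5. The star of Atf3 for cKO-Eed-MADM against Eed-MADM at E16.5 is not read, since those Eed-MADM libraries also chose the list. The Atf3 values against the E16.5 controls, which held no read and chose the list, carry no test, depend on the prior count of the fit and are no measure of size.

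Fos (ENSMUSG00000021250.13, chromosome 12, 85473890 to 85477273) is the prototype Fos subunit of AP-1. At E16.5 it read 1346, 1393 and 1847 CPM in control-MADM, 2418, 2479, 2791, 3045 and 3187 CPM in Eed-MADM and 3448, 3916, 4117 and 4132 CPM in cKO-Eed-MADM. The 3 groups did not overlap and stood in that order. The means were 1529 ± 277, 2784 ± 338 and 3903 ± 319 CPM (SD), and the cKO-Eed-MADM mean was 2.55-fold that of control-MADM and 1.402-fold that of Eed-MADM. The log2 fold change of cKO-Eed-MADM was 1.39 ± 0.13 (SE) against control-MADM (edgeR adjusted p = 2.29e-06) and 0.52 ± 0.11 against Eed-MADM (edgeR adjusted p = 0.00476).

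At P0 Fos read 735, 786, 793, 809 and 1026 CPM in control-MADM, 1219 to 2354 with a median of 1621 CPM in the 9 libraries of Eed-MADM and 3369.9, 3745, 4509 and 5580.3 CPM in cKO-Eed-MADM. Again no group overlapped another and the order was the same. With means of 829.9 ± 113, 1654 ± 331 and 4301 ± 976 CPM (SD), cKO-Eed-MADM was at 5.18 times control-MADM (2.38 ± 0.17 on the log2 scale, edgeR adjusted p = 7.7e-10) and at 2.60 times Eed-MADM (1.38 ± 0.15, edgeR adjusted p = 3.29e-07). Eed-MADM was at 1.99 times control-MADM (1.00 ± 0.15, edgeR adjusted p = 0.000296).

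Ordered by mean over all 12 green groups, Fos was lowest in control-MADM at E12.5 and highest in cKO-Eed-MADM at P0. The 6 groups of E12.5 and E13.5 came first, with library ranges that overlapped from each to the next. They were followed by control-MADM at P0, whose range overlapped that of cKO-Eed-MADM at E13.5 (247 to 849.8 CPM), and by control-MADM at E16.5, whose range did not overlap that of P0. Eed-MADM at P0 came next and overlapped control-MADM at E16.5. Eed-MADM at E16.5 lay above both and below cKO-Eed-MADM with no overlap, and the E16.5 and P0 ranges of cKO-Eed-MADM overlapped each other.

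Fosb (ENSMUSG00000003545.3, chromosome 7, 19302696 to 19310051) encodes a Fos subunit known to accumulate with repeated neuronal activity. At E16.5 it read 343, 382 and 499 CPM in control-MADM, 369.6, 379, 442, 512 and 547 CPM in Eed-MADM and 552, 559, 721 and 979 CPM in cKO-Eed-MADM. All cKO-Eed-MADM libraries were above all others, and the other two groups overlapped. The difference was 0.82 ± 0.19 on the log2 scale against control-MADM (edgeR adjusted p = 0.0105) and 0.67 ± 0.17 against Eed-MADM (edgeR adjusted p = 0.0161). The first call was lost without control-MADM replicate 2 (edgeR adjusted p = 0.0783) or 3 (0.0685), and the second without cKO-Eed-MADM replicate 1 (0.0693) or Eed-MADM replicate 2 (0.0612).

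At P0 Fosb read 46.9, 79.7, 92.3, 101 and 200.2 CPM in control-MADM, 88.5 to 299 with a median of 198 CPM in Eed-MADM and 323, 404, 415 and 609 CPM in cKO-Eed-MADM. The cKO-Eed-MADM libraries again lay above all others. The log2 fold change was 2.08 ± 0.32 against control-MADM (edgeR adjusted p = 5.33e-05) and 1.05 ± 0.27 against Eed-MADM (edgeR adjusted p = 0.00785). Eed-MADM against control-MADM had 1.03 ± 0.27 and missed the threshold (edgeR adjusted p = 0.0566), which it passed without control-MADM replicate 2 (1.39, edgeR adjusted p = 0.00435), with all green libraries (edgeR adjusted p = 0.0238) and with DESeq2 (adjusted p = 0.0244), which called 4 members there in place of 3.

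Fosl2 (ENSMUSG00000029135.10, chromosome 5, 32135801 to 32157842) encodes FRA2, a Fos-related subunit that lacks the strong activation domain of FOS. At E16.5 it read 13.1, 23.8 and 28.1 CPM in control-MADM, 28.0, 35.4, 39.0, 43.4 and 51.5 CPM in Eed-MADM and 39.5, 52.3, 54.3 and 62.5 CPM in cKO-Eed-MADM, with cKO-Eed-MADM above all controls. At P0 it read 1.46, 8.97, 10.8, 16.8 and 35.7 CPM, 8.71 to 64.8 with a median of 40.2 CPM and 56.8, 92.0, 128 and 129 CPM in the same order. The P0 cKO-Eed-MADM libraries lay above all controls, and Eed-MADM overlapped both other groups. Against control-MADM the log2 fold change of cKO-Eed-MADM was 1.29 ± 0.29 at E16.5 (edgeR adjusted p = 0.00619) and 2.79 ± 0.54 at P0 (edgeR adjusted p = 0.000784). Against Eed-MADM it was 1.46 ± 0.44 at P0 (edgeR adjusted p = 0.0240), a call lost without cKO-Eed-MADM replicate 1, 2 or 4 (edgeR adjusted p = 0.0697, 0.0776 and 0.0531). Eed-MADM against control-MADM had 1.32 ± 0.47 (edgeR adjusted p = 0.154), and without control-MADM replicate 1, 1.94 (edgeR adjusted p = 0.0284).

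Fosl1 (ENSMUSG00000024912.5, chromosome 19, 5447547 to 5455946), which encodes FRA1, the other Fos-related subunit without that domain, was scarce throughout. Outside cKO-Eed-MADM at P0 no green library exceeded 5.66 CPM, while the 4 libraries of that group read 3.31, 4.31, 6.81 and 12.2 CPM against 1.33 to 3.17 CPM in control-MADM. The groups did not overlap, but the log2 fold change of 1.52 ± 0.59 missed the threshold (edgeR adjusted p = 0.0613), which it passed without cKO-Eed-MADM replicate 3 (1.76, edgeR adjusted p = 0.0470) and with DESeq2 (adjusted p = 0.0344). Its exons overlap those of Ccdc85b in the annotation, and counts without strand leave such reads uncertain.

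Jun (ENSMUSG00000052684.4, chromosome 4, 95049034 to 95052222) encodes the subunit that can form AP-1 with itself or with any Fos protein. At E13.5 it read 619 and 770.4 CPM in control-MADM, 356 and 404 CPM in Eed-MADM and 236, 338, 348 and 366 CPM in cKO-Eed-MADM. Both control libraries lay above all others, with log2 fold changes of -0.87 ± 0.31 in Eed-MADM (edgeR adjusted p = 0.676) and -1.12 ± 0.26 in cKO-Eed-MADM (edgeR adjusted p = 0.105). DESeq2 called the latter (adjusted p = 0.00380), as did edgeR without control-MADM replicate 3 (edgeR adjusted p = 0.0445).

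At E16.5 Jun read 409.6, 440.3 and 510.2 CPM in control-MADM, 639, 652, 746, 750.5 and 809 CPM in Eed-MADM and 629, 763, 1033 and 1148 CPM in cKO-Eed-MADM. At P0 it read 308, 329, 331, 428 and 484 CPM, 488 to 737 with a median of 635 CPM and 622, 873, 927 and 1325 CPM in the same order of groups. At both ages the controls lay below every library of both other groups, which overlapped each other. Against control-MADM, cKO-Eed-MADM differed by 1.01 ± 0.17 at E16.5 (edgeR adjusted p = 0.000640) and 1.32 ± 0.18 at P0 (edgeR adjusted p = 5.1e-06), and Eed-MADM by 0.78 ± 0.15 at P0 (edgeR adjusted p = 0.00601). Against Eed-MADM, cKO-Eed-MADM differed by 0.54 ± 0.15 at P0 (edgeR adjusted p = 0.0133), which was not called without cKO-Eed-MADM replicate 1 (0.35, edgeR adjusted p = 0.119). Reads of the antisense gene Junos cannot be told apart from those of Jun.

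Junb (ENSMUSG00000052837.6, chromosome 8, 84974484 to 84978718) encodes a Jun subunit that activates less strongly than JUN and can oppose it. At E16.5 it read 99.0, 125 and 132 CPM in control-MADM, 99.0, 121, 166, 184 and 213 CPM in Eed-MADM and 154, 277, 303 and 323 CPM in cKO-Eed-MADM, with the last group above all controls and overlapping Eed-MADM. At P0 it read 81.4, 93.2, 116, 118 and 135 CPM, 138 to 393 with a median of 211 CPM and 421, 470.1, 529.5 and 801 CPM in the same order, with no overlap among the 3 groups. Against control-MADM the log2 fold change in cKO-Eed-MADM was 1.19 ± 0.26 at E16.5 (edgeR adjusted p = 0.00528) and 2.35 ± 0.24 at P0 (edgeR adjusted p = 1.85e-07), and in Eed-MADM 1.12 ± 0.21 at P0 (edgeR adjusted p = 0.00463, and 0.0608 with all colors in the fit). Against Eed-MADM, cKO-Eed-MADM differed by 1.23 ± 0.20 at P0 (edgeR adjusted p = 0.000137). At E16.5 it differed by 0.79 ± 0.22 (edgeR adjusted p = 0.0322), a call lost on leaving out any 1 of 6 libraries, cKO-Eed-MADM replicate 2, 3 or 4 or Eed-MADM replicate 2, 4 or 5, with edgeR adjusted p from 0.0628 to 0.129. Junb overlaps Prdx2 in the annotation.

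Jund (ENSMUSG00000071076.6, chromosome 8, 70698949 to 70700616), the Jun subunit known for steady expression in resting cells, was called in no comparison of green cells. At P0 it read 281, 291, 331, 338 and 399.8 CPM in control-MADM, 253 to 417 with a median of 316 CPM in Eed-MADM and 323, 334, 336 and 511 CPM in cKO-Eed-MADM. At E16.5 it read 301, 357 and 441 CPM in control-MADM, 392 to 603 CPM in Eed-MADM and 392 to 624.8 CPM in cKO-Eed-MADM. Each group overlapped both others at both ages. The log2 fold change of cKO-Eed-MADM against control-MADM was 0.46 ± 0.18 at E16.5 (edgeR adjusted p = 0.148, interval of 2 SE 0.093 to 0.82) and 0.21 ± 0.17 at P0 (edgeR adjusted p = 0.411, interval -0.14 to 0.55). The antisense gene Gm11175 overlaps it.

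Atf3 (ENSMUSG00000026628.13, chromosome 1, 191170296 to 191218039) encodes a CREB/ATF family protein that pairs with Jun proteins and is induced by many kinds of cell stress. At E16.5 no read was counted in the 3 control-MADM libraries, which allows up to 0.201 CPM at 3 counts over the group (counting error only). The Eed-MADM libraries read 0.717, 1.65, 6.36, 6.52 and 10.3 CPM and the cKO-Eed-MADM libraries 12.5, 19.9, 24.1 and 37.9 CPM, with no overlap among the groups. Against the limit for the controls, Eed-MADM was at least 25.5-fold higher, the comparison that chose the list, and the rise in cKO-Eed-MADM was at least 117-fold. Both are descriptions with no test, since the same controls chose the list. The cKO-Eed-MADM mean was 4.61 times that of Eed-MADM, with a log2 fold change of 2.22 ± 0.59. This too is a description with no test, since the Eed-MADM libraries also chose the list. The log2 fold change was 1.90 to 2.28 without cKO-Eed-MADM replicate 2, 3 or 4 or Eed-MADM replicate 3.

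At P0 Atf3 read 0.332, 1.67, 1.96, 4.84 and 5.21 CPM in control-MADM, 0 to 10.4 with a median of 3.90 CPM in Eed-MADM and 48.4, 64.3, 66.5 and 67.2 CPM in cKO-Eed-MADM. Control-MADM and Eed-MADM overlapped, and cKO-Eed-MADM lay far above both. The means were 2.80 ± 2.12, 4.68 ± 3.64 and 61.6 ± 8.86 CPM (SD), a 21.98-fold difference from control-MADM (4.46 ± 0.69 on the log2 scale, edgeR adjusted p = 5.48e-05) and a 13.2-fold difference from Eed-MADM (3.68 ± 0.53, edgeR adjusted p = 3.66e-05). Eed-MADM differed from control-MADM by 0.78 ± 0.59 (edgeR adjusted p = 0.521). A small RNA gene, Gm24748, lies within Atf3.

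Egr1 (ENSMUSG00000038418.7, chromosome 18, 34859823 to 34864984) read 198, 202 and 250.2 CPM in control-MADM, 353, 358, 383, 475 and 579 CPM in Eed-MADM and 294, 704, 939 and 1140.5 CPM in cKO-Eed-MADM at E16.5. Both Eed-/- groups lay above the controls. At P0 the levels in the same order were 669.6, 706, 740.1, 983 and 1407 CPM, 486 to 1454 with a median of 1215 CPM and 1809, 1885, 2636 and 2829 CPM, with cKO-Eed-MADM above all others and Eed-MADM overlapping control-MADM. Against control-MADM the log2 fold change of cKO-Eed-MADM was 1.86 ± 0.33 at E16.5 (edgeR adjusted p = 0.00171) and 1.34 ± 0.27 at P0 (edgeR adjusted p = 0.000996), and against Eed-MADM 1.05 ± 0.24 at P0 (edgeR adjusted p = 0.00284). At E16.5 the difference from Eed-MADM was 0.87 ± 0.27 (edgeR adjusted p = 0.0709), which passed the threshold without cKO-Eed-MADM replicate 1 (1.14, edgeR adjusted p = 0.000210), the lowest of the group.

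Ier2 (ENSMUSG00000053560.4, chromosome 8, 84661331 to 84662852), an immediate early gene whose product is a small nuclear protein, read 298, 299.7 and 323 CPM in control-MADM, 417, 441, 488, 529.9 and 571 CPM in Eed-MADM and 292, 406, 443 and 455 CPM in cKO-Eed-MADM at E16.5. The lowest cKO-Eed-MADM library lay below the controls and the others above them, and cKO-Eed-MADM was not called against control-MADM (0.41 ± 0.15, edgeR adjusted p = 0.117). Without that library, replicate 1, it was (0.54, edgeR adjusted p = 0.0145). In the same order of groups, Ier2 at P0 read 364, 405, 413, 415 and 438 CPM, 329 to 581 with a median of 412 CPM and 603, 820.1, 1036 and 1132 CPM. The cKO-Eed-MADM libraries lay above all others while the other two groups overlapped. The log2 fold change was 1.15 ± 0.18 against control-MADM (edgeR adjusted p = 4.7e-05) and 1.05 ± 0.16 against Eed-MADM (edgeR adjusted p = 3.42e-05).

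At E12.5 and E13.5 edgeR called no member in any comparison of green cells. The share of all genes called was 0% in the 3 comparisons of E12.5, 0% for Eed-MADM and 0.0372% for cKO-Eed-MADM against control-MADM at E13.5, and 0.0223% between them. Members with an unadjusted p under 0.05 numbered 0 for Eed-MADM, 2 for cKO-Eed-MADM and 0 between them at E12.5, and 1, 2 and 2 at E13.5. DESeq2 called Jun in cKO-Eed-MADM against control-MADM at E13.5 and no other member. Fos at E12.5 read 74.6, 118, 133, 148 and 209.6 CPM in control-MADM, 56.1 to 443 with a median of 142 CPM in the 8 Eed-MADM libraries and 135, 409.7, 529.5 and 539.5 CPM in cKO-Eed-MADM, with overlap among all groups. At E13.5 it read, in the same order, 251 and 392 CPM, 283 and 319 CPM and 247, 734, 832 and 849.8 CPM. Of the 4 cKO-Eed-MADM libraries of E13.5, 3 lay above and 1 below the controls, and the log2 fold change was 1.04 ± 0.41 (edgeR adjusted p = 0.387). The members' median log2 fold change against control-MADM at E12.5 was 0.33 for Eed-MADM and 0.66 for cKO-Eed-MADM, and at E13.5 it was -0.23 and 0.053. At E12.5 markers of other cells were high and uneven among green libraries, with the 7 red blood cell markers at 5.53 to 16019 CPM in control-MADM and 159.6 to 92173 CPM in cKO-Eed-MADM. Their part in these values was not tested.

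The difference from control-MADM was not shown to grow from E16.5 to P0 for any member. In the contrast of contrasts, edgeR called 0 of 9 members for cKO-Eed-MADM, where 0.303% of all genes were called, and 0 of 9 for Eed-MADM, where 0.0074% were, with 3 and 1 members at an unadjusted p under 0.05 and 0 called by DESeq2. The 9 include Atf3, whose E16.5 libraries chose the list. For Fos the change of the log2 fold change was 1.04 ± 0.56 in cKO-Eed-MADM (edgeR adjusted p = 0.758) and 0.15 ± 0.51 in Eed-MADM (edgeR adjusted p = 0.998).

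In Eed-MADM the colors of cells differ in genotype within a tissue. Red and green cells there also differ in the parental origin of chromosome 7, and these cannot be told apart. In Eed-MADM at P0, Fos read 866 and 998 CPM in the 2 libraries of red Eed+/+ cells and 989 and 1279 CPM in those of yellow Eed+/- cells, against 1219 to 2354 CPM in green Eed-/- cells of the same paradigm. Both red libraries lay below all green ones, and 1 yellow library lay among them. In control-MADM, where all colors are Eed+/+, red cells read 977 and 1101 CPM and yellow cells 754 and 1239.7 CPM, against 735 to 1026 CPM in green cells, so that 1 red and 1 yellow library lay above the green range and 1 of each within it. In cKO-Eed-MADM, where all colors are Eed-/-, red cells read 2686 and 4761 CPM and the yellow library 4461 CPM, above every library of the other paradigms. At E16.5 the single library of red Eed-MADM cells held 2341 CPM of Fos, above the 1346 to 1847 CPM of green, the 1444 and 1752 CPM of red and the 1725 CPM of yellow control-MADM cells and below the green Eed-MADM range, with no replicate to test it.

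Red against green cells of Eed-MADM at P0 gave a log2 fold change of -0.82 ± 0.24 for Fos (edgeR adjusted p = 0.633) and -1.18 ± 0.37 for Junb (edgeR adjusted p = 0.783). All 10 members had a fitted value of 0 or below, with a median of -0.58 against -0.017 over all genes. None was called, 3 had an unadjusted p under 0.05, and 0.0988% of all genes were called. In control-MADM at P0, where both colors are Eed+/+, red against green cells had a member median of 0.53. There, 7 of 10 members lay above 0, 4 had an unadjusted p under 0.05, and 0 members and 0% of all genes were called. Junb read 96.6 and 109 CPM in red Eed-MADM cells, 163 and 370.1 CPM in red control-MADM cells and 640.0 and 788 CPM in red cKO-Eed-MADM cells. Both red Eed-MADM libraries lay below the red control-MADM ones, which differed from each other by more than the lower of them did from Eed-MADM.

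Over the 13 comparisons of yellow or red with green cells, edgeR called 1 member, Jun in yellow against green control-MADM cells at P0 (0.88 ± 0.23, edgeR adjusted p = 0.0264), where both colors are Eed+/+ and 5.17% of all genes were called. The call was lost without green replicate 4 (0.83, edgeR adjusted p = 0.0586) or yellow replicate 2, the library with few detected genes, without which the value was 0.56 (edgeR adjusted p = 0.486). In the other comparisons of yellow cells, the share of genes called was 0% for control-MADM and 0.183% for Eed-MADM at E12.5, 0% for both Eed-MADM and cKO-Eed-MADM at E13.5, and 0.127% for Eed-MADM at P0. For red cells the E13.5 shares were 0.0897% for Eed-MADM and 0.0598% for cKO-Eed-MADM, and the others 0.105% for control-MADM and 0.0903% for cKO-Eed-MADM at E16.5, and 0% in control-MADM and 3.27% in cKO-Eed-MADM at P0. In these 12 comparisons edgeR called no member, 0 to 4 members had an unadjusted p under 0.05, and DESeq2 called Fosl2 and Atf3 lower in yellow Eed-MADM cells at P0.

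Red cells offered the contrast of cKO-Eed-MADM with control-MADM in cells with maternal copies of chromosome 7. It changes the genotype of the cells and of the tissue together. Against red control-MADM cells, 3 of 9 tested members were called higher in red cKO-Eed-MADM cells at E16.5, where 3.93% of all genes were called, and 3 of 10 at P0, where 6.19% were, with 2 libraries in each group. At E16.5 these were Fos, at 1.29 ± 0.16 (edgeR adjusted p = 4.46e-05), Fosb, at 0.94 ± 0.25 (edgeR adjusted p = 0.0323), and Atf3 (edgeR adjusted p = 0.00767). At P0 they were Fos, at 1.81 ± 0.30 (edgeR adjusted p = 0.000806), Jun, at 1.06 ± 0.28 (edgeR adjusted p = 0.0249), and Egr1, at 1.62 ± 0.42 (edgeR adjusted p = 0.0201). For each of these 3 genes, both red cKO-Eed-MADM libraries of P0, the one with few detected genes included, lay above both red control-MADM libraries. The summed microglia markers of the P0 libraries were 166 and 491 CPM in red control-MADM and 501 and 611 CPM in red cKO-Eed-MADM. Red Eed-MADM cells, which are Eed+/+, had no member called against red control-MADM cells at P0, where 0.00706% of all genes were called, with Fos at -0.16 ± 0.29 (edgeR adjusted p = 1.00).

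**Figure D3:**
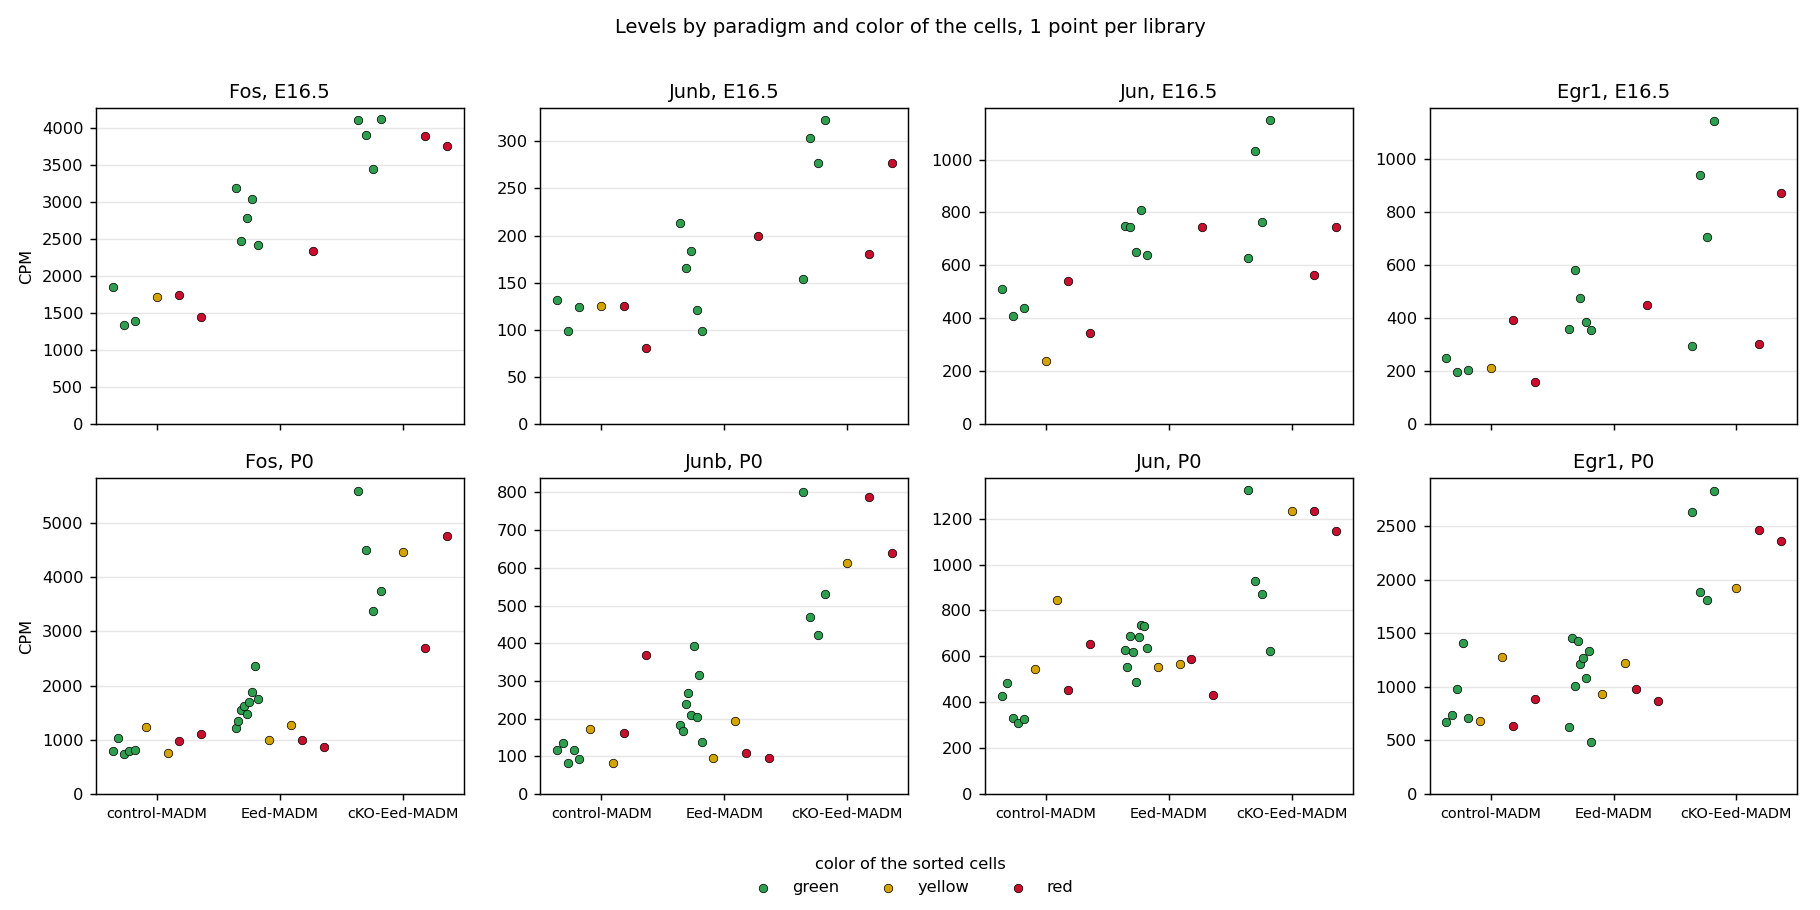
Levels in CPM of 4 members at E16.5 and P0 by paradigm (x axis) and color of the sorted cells, with 1 point per library and axes that start at 0. Green and red cKO-Eed-MADM libraries are high for Fos at both ages, as is the only yellow one, of P0. The red Eed-MADM libraries of P0 lie at 866 and 998 CPM, within the range of the control-MADM colors.

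Other immediate early genes moved with the members. Of 39 further genes of this class, listed with earlier results of these data known, 16 were called higher and 0 lower in cKO-Eed-MADM against control-MADM at E16.5 and 30 higher and 0 lower at P0, where 6.16% and 14.2% of all genes were called higher, with list medians of 0.96 and 1.33. At E16.5 those with the lowest adjusted p were the orphan nuclear receptor genes Nr4a2, at 2.60 ± 0.17 (edgeR adjusted p = 5.59e-08), and Nr4a1, at 1.29 ± 0.16 (edgeR adjusted p = 3.85e-05), and Npas4, a neuronal activity-dependent factor, at 1.15 ± 0.17 (edgeR adjusted p = 0.000135). At P0 they were Cebpb, a basic leucine zipper factor of inflammation and differentiation, at 3.17 ± 0.29 (edgeR adjusted p = 3.08e-08), Klf4, at 2.75 ± 0.30 (edgeR adjusted p = 3e-07), and Ier3, at 2.34 ± 0.30 (edgeR adjusted p = 2.84e-06). Against Eed-MADM, 7 were higher and 1 lower at E16.5, where Nr4a2 was at 1.71 ± 0.14 (edgeR adjusted p = 4.13e-07) and Myc at -0.86 ± 0.13 (edgeR adjusted p = 0.000195), and 23 were higher and 0 lower at P0, where Cebpb was at 2.31 ± 0.24 (edgeR adjusted p = 2.12e-07). In Eed-MADM against control-MADM at P0, 2 were higher and 0 lower, Klf4 at 1.02 ± 0.25 (edgeR adjusted p = 0.0368) and Ier3 at 1.00 ± 0.26 (edgeR adjusted p = 0.0410), with a median of 0.34. Of all genes, 1.52% were called higher there, and 4.45% at E16.5 and 11.2% at P0 in cKO-Eed-MADM against Eed-MADM.

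Possible dimer partners outside the members had a median log2 fold change near 0 at P0. Of 15 further basic leucine zipper genes, 11 were tested at P0, where 14.2% of all genes were called higher in cKO-Eed-MADM against control-MADM. Of the 11, 3 were called higher and none lower, at a median of 0.052. They were Nfe2l2, the factor of the oxidative stress response, at 2.12 ± 0.30 (edgeR adjusted p = 1.13e-05), Maf, at 2.19 ± 0.54 (edgeR adjusted p = 0.00402), and Crem, at 1.03 ± 0.30 (edgeR adjusted p = 0.0124).

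Heat shock genes, another class induced by cell stress, had medians near 0. Of 12 tested of 15, 0 were called higher and 1 lower in cKO-Eed-MADM against control-MADM at E16.5, Hsf1 at -0.53 ± 0.16 (edgeR adjusted p = 0.0439), and 3 higher and 0 lower at P0, with Hspa5 at 0.66 ± 0.16 (edgeR adjusted p = 0.00303), Dnajb4 at 0.72 ± 0.20 (edgeR adjusted p = 0.0121) and Bag3 at 1.70 ± 0.52 (edgeR adjusted p = 0.0191). The medians were -0.071 and -0.058. Of all genes tested, 6.16% were called higher at E16.5 and 14.2% at P0. The 15 genes summed to 4079 to 4264 CPM in control-MADM and 3592 to 4072 CPM in cKO-Eed-MADM at E16.5, and to 3197 to 3832 and 3153 to 3591 CPM at P0, and the groups overlapped at P0. Of the genes of the integrated stress response, the ATF4-driven program, 2 of 12 were higher and 1 lower at E16.5 and 3 of 13 higher and 0 lower at P0, with medians of -0.055 and 0.51. Sesn2, which encodes a stress-inducible regulator of growth signaling, had the lowest adjusted p at both ages, at 2.21 ± 0.40 (edgeR adjusted p = 0.00106) and 3.15 ± 0.32 (edgeR adjusted p = 1.1e-07).

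**Figure D4:**
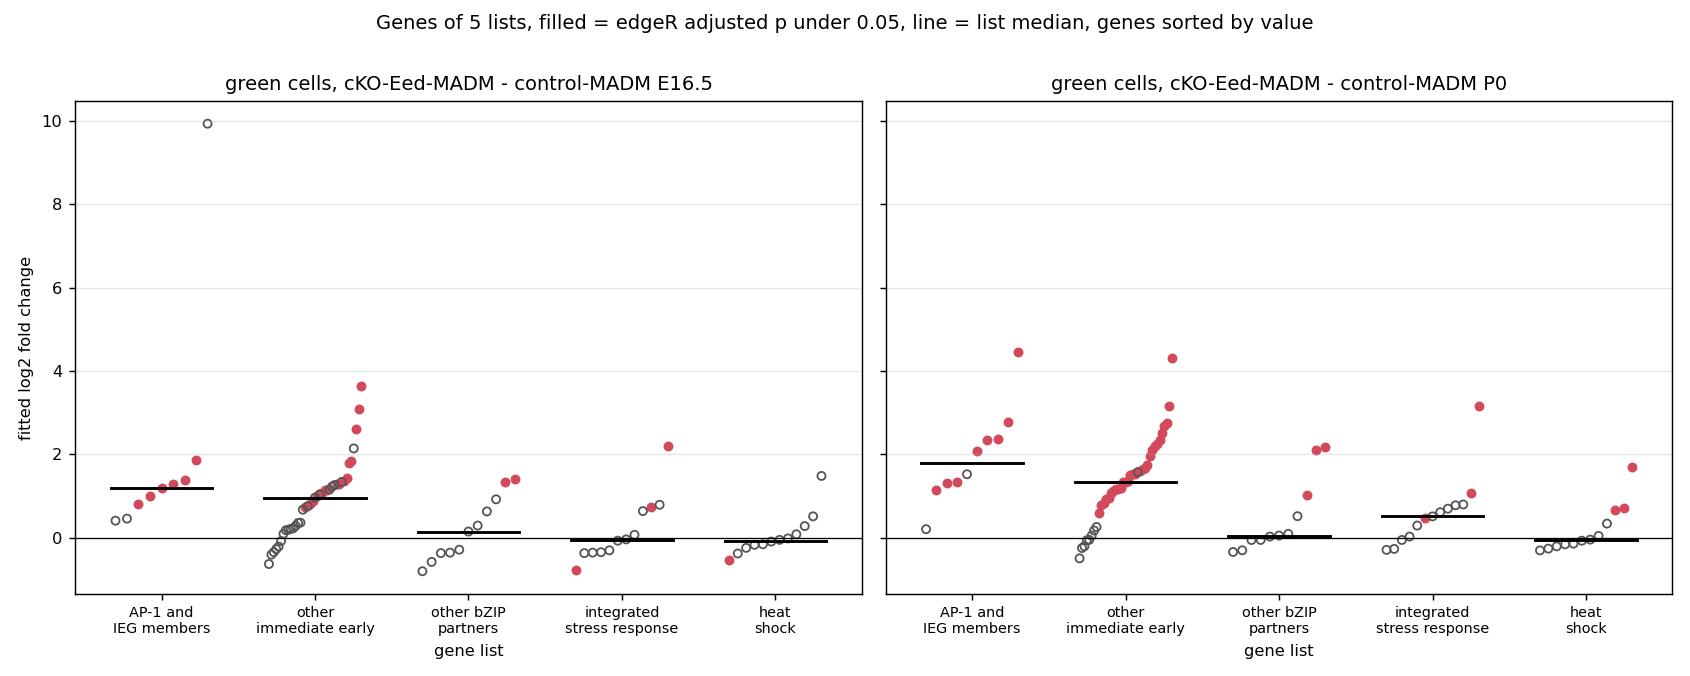
Fitted log2 fold changes of cKO-Eed-MADM against control-MADM in green cells (y axis) for the members and 4 gene lists (x axis) at E16.5 and P0, with filled points for an edgeR adjusted p under 0.05, Atf3 at E16.5 drawn as an empty point with no test, and a line at each list's median. The members' medians are 1.19 and 1.80, those of other immediate early genes 0.96 and 1.33, and those of heat shock genes -0.071 and -0.058. The highest member at E16.5 is Atf3, whose fitted value depends on the prior count.

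Markers of some other cells moved with the same groups. At P0, 10 of 11 tested microglia markers and 6 of 6 tested meningeal markers were called higher in green cKO-Eed-MADM cells against control-MADM, where 14.2% of all genes were. The 12 microglia markers summed to 17.3 to 92.9 CPM in green control-MADM, 15.4 to 212 CPM in Eed-MADM and 258 to 537 CPM in cKO-Eed-MADM at P0, with none of the 12 at 0 in all libraries of a group. The 8 meningeal markers summed to 9.96 to 17.5, 10.1 to 38.3 and 108 to 258 CPM and the 10 endothelial markers to 9.17 to 21.7, 4.45 to 23.0 and 26.3 to 45.7 CPM. Of the tested markers of endothelial cells (2), pericytes (4) and red blood cells (5), 0 were called in cKO-Eed-MADM against control-MADM at P0. At E16.5 the microglia sums were 11.7 to 20.1 CPM in control-MADM, at most 59.9 CPM in Eed-MADM and 28.7 to 80.8 CPM in cKO-Eed-MADM, with 2 of the 12 markers at 0 in all control-MADM libraries. The 6 interneuron markers summed to 12.8 to 34.9 CPM in control-MADM, 15.8 to 59.8 CPM in Eed-MADM and 249.7 to 498 CPM in cKO-Eed-MADM at E16.5, with P0 sums of 363 to 875, 323 to 585 and 158 to 243 CPM. Progenitor markers differed as well. The 4 intermediate progenitor markers summed at E16.5 to 559 to 708 CPM in control-MADM, 376 to 672 CPM in Eed-MADM and 215 to 348 CPM in cKO-Eed-MADM, and at P0 to 234 to 392, 171 to 470.0 and 455 to 826 CPM. Of these, 0 were called higher and 2 lower in cKO-Eed-MADM against control-MADM at E16.5, and 1 higher and 2 lower of 3 tested at P0. The 9 radial glia markers summed to 869 to 1106 CPM in control-MADM and 947 to 1857 CPM in cKO-Eed-MADM at E16.5, with 2 called higher and 1 lower, and to 2607 to 6918 and 3408 to 6985 CPM at P0, with 3 higher and 1 lower. Of all genes tested in this comparison, 1146 of 13359 were called in either direction at E16.5, 823 of them higher. At P0 3427 of 14161 were called, 2010 of them higher. The part of any of these cell types in the members' levels was not tested.

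**Figure D5:**
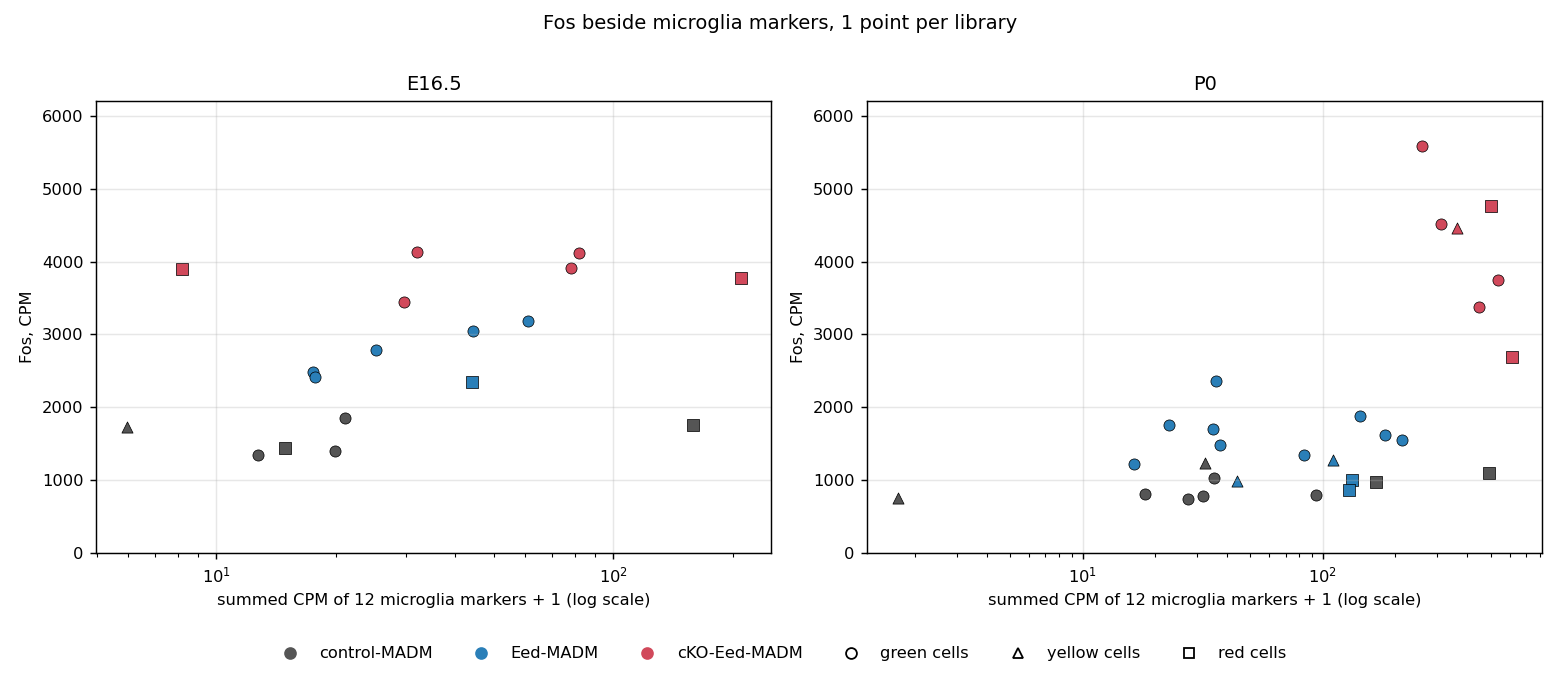
Fos in CPM (y axis, from 0) against the summed CPM of 12 microglia markers plus 1 (log x axis) at E16.5 and P0, with 1 point per library, colored by paradigm and shaped by color of the cells. Green cKO-Eed-MADM libraries lie above green control-MADM libraries on both axes, with marker sums of 28.7 to 80.8 CPM against 11.7 to 20.1 CPM at E16.5 and 258 to 537 CPM against 17.3 to 92.9 CPM at P0.

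Within groups, Fos was compared with 7 library measures over the 55 green libraries, as deviations of log2(CPM + 1) from the mean of each of the 12 groups, with 2-sided permutation tests. No relation passed adjustment over the 7. The share of uniquely aligned reads outside genes gave r = -0.45 (permutation p = 0.0412, adjusted 0.211) and rho = -0.39 (permutation p = 0.0181, adjusted 0.0635), with r = -0.40 without the 2 libraries farthest from its median. The summed heat shock genes gave r = 0.32 (permutation p = 0.0617, adjusted 0.211) and rho = 0.37 (permutation p = 0.0152, adjusted 0.0635), with r = 0.41 without the 2 farthest. For the microglia markers the values were r = 0.074 (permutation p = 0.683, adjusted 0.683) and rho = 0.15 (permutation p = 0.338, adjusted 0.407), with r = 0.036 without the 2 farthest. Reads on genes gave r = 0.26 (permutation p = 0.106, adjusted 0.211) and rho = 0.23 (permutation p = 0.147, adjusted 0.344), with r = 0.33 without the 2 farthest. These values rest in part on E12.5: over the 38 green libraries of the later ages, r was -0.15 (permutation p = 0.563) for the share outside genes, 0.23 (permutation p = 0.305) for the heat shock genes, -0.084 (permutation p = 0.633) for reads on genes, -0.16 (permutation p = 0.499) for the microglia markers and -0.074 (permutation p = 0.723) for the endothelial markers, each with an adjusted p of 0.723. Without the 2 farthest libraries, that for the heat shock genes was 0.10.

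The genes whose deviations followed those of Fos most closely over the same 55 libraries, among 12009 genes with a mean of at least 5 CPM, were Syt16 (r = 0.72), which encodes a synaptotagmin, the immediate early genes Nr4a1 (r = 0.71) and Rhob (r = 0.70), Gmds (r = 0.69), Eng (r = 0.68), which encodes endoglin of endothelial cells, Tmem200a (r = 0.67), Tspan9 (r = 0.67) and Slc9a3r2 (r = 0.67). Junb was the member closest to Fos (r = 0.67), followed by Fosb (r = 0.56), Jun (r = 0.53), Ier2 (r = 0.50), Egr1 (r = 0.46), Fosl2 (r = 0.38), Atf3 (r = 0.34) and Jund (r = 0.027). The median r was 0.48 over these 8 members, 0.31 over the 39 other immediate early genes, 0.11 over 12 heat shock genes and 0.064 over all genes. The points of these correlations share their libraries and depth, and no p is given. The ranking was not repeated without E12.5 or without outlying libraries, so it may rest on few of them. The summed endothelial markers gave r = 0.37 (permutation p = 0.121, adjusted 0.211) and rho = 0.14 (permutation p = 0.346, adjusted 0.407) with Fos, and r = 0.067 without the 2 farthest libraries.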

How the data were processed

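The data are bulk Smart-Seq2 RNA-seq libraries of sorted neocortical cells. The authors aligned reads with STAR to mm10, kept reads with a single alignment, and deposited raw counts of reads per gene made without regard to strand (annotation release not given in the sources used here). Reads outside genes or on several genes, 13.4 to 40.4% of uniquely aligned reads in the libraries used, stayed out of library sizes and tests. Of 53379 gene IDs, 53274 matched GENCODE M21, which gave names, coordinates (GRCm38) and exon lengths. Each library is 1 sample of the labels, grouped by paradigm, age and color, and 24 libraries under the read or share limit were left out of the main tests.

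The members and gene lists were chosen with earlier results of these data known. Genes with a mean count above 1 at E12.5 or above 10 at later ages and across ages were tested with edgeR 4.0.16 (R 4.3.3, limma 3.58.1; robust quasi-likelihood test of the older form, TMM normalization, Benjamini-Hochberg adjustment over all genes tested, adjusted p under 0.05). Each fit of an age held all green libraries of the 3 paradigms, and comparisons of colors used a fit of all colors of the age. DESeq2 1.42.0, its size factors, other filters, the replicate number as a block, other sets of libraries and leaving out each replicate were tried as alternatives. Values shown are TMM-scaled CPM, and correlations used log2(CPM + 1), Python 3.11.15 and scipy 1.17.1 with 100000 permutations. The pipeline was tested on simulated data. Named genes of a list are up to 3 with the lowest adjusted p among those called, and genes like Fos are the 8 with the highest r outside the members. Calls of the further basic leucine zipper genes at E16.5 are not reported here. Limits from a count of 0 take 3 counts over the group and, like other depth limits, cover counting error only. No pair of libraries agreed within sampling noise (lowest chi-square per degree of freedom 5.55 over 146 pairs).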

Additional observations from a re-analysis of the deposited data

Results flagged for a closer look

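Of 100 groups of 4 to 10 libraries tested over the members, 11 held a library that stood apart from the rest of its group by Dixon's criterion, which chance alone meets in about 1 in 20 groups. At P0, Fos in green control-MADM replicate 2 was the highest of its group at 1026 CPM (nearest library 809 CPM), Fosb in green Eed-MADM replicate 1 the lowest at 88.5 CPM (nearest 194 CPM), Jund in green cKO-Eed-MADM replicate 2 the highest at 511 CPM (nearest 336 CPM) and Atf3 in green cKO-Eed-MADM replicate 3 the lowest at 48.4 CPM (nearest 64.3 CPM). At E13.5, Egr1 in green cKO-Eed-MADM replicate 3 was the highest at 162 CPM (nearest 123 CPM). The other 6 were highest values of E12.5. In green Eed-MADM replicate 8, Fosl2 read 36.2 CPM (nearest 12.4 CPM) and Junb 245 CPM (nearest 62.3 CPM), and in green cKO-Eed-MADM replicate 3 Fosl2 read 27.3 CPM (nearest 7.54 CPM). Among yellow cells, Junb in control-MADM replicate 1 read 52.5 CPM (nearest 21.4 CPM), Jund in control-MADM replicate 3 read 354 CPM (nearest 172 CPM) and Egr1 in Eed-MADM replicate 4 read 216 CPM (nearest 83.7 CPM).

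For Jun in both Eed-MADM and cKO-Eed-MADM, and for Ier2 in cKO-Eed-MADM alone, all green libraries lay below the control-MADM libraries at E13.5 and all above them at a later age. The Jun mean of green Eed-MADM was 0.547 times that of control-MADM at E13.5, 1.59 times at E16.5 and 1.71 times at P0, and that of cKO-Eed-MADM 0.463 times at E13.5, 1.97 times at E16.5 and 2.49 times at P0. The Ier2 mean of cKO-Eed-MADM was 0.764 times that of control-MADM at E13.5 and 2.21 times at P0. These differences between ages were not tested, and the E13.5 controls were 2 libraries. The share of all genes with such an order was not counted. With so few libraries it can arise by chance, so it is a description only.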

How the results depend on the processing

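Of 3603 values of single members under the alternatives, 3497 kept their side of the threshold (165 uncalled ones among them changed sign), 55 fell below it, 48 passed it and 3 called values changed sign. Those 3 are green Eed-MADM against control-MADM at P0 with red cells, which are Eed+/+ in both, in place of green (chosen after seeing the data), where the log2 fold change was -0.16 for Fos, -0.13 for Jun and -1.39 for Junb. With red cells, 3 members in place of 7 were called for cKO-Eed-MADM against control-MADM at E16.5 (the 7 and the counts by age include Atf3), 3 in place of 8 at P0, 0 in place of 3 for Eed-MADM at P0, and 1 in place of 0 for cKO-Eed-MADM against Eed-MADM at E13.5. For cKO-Eed-MADM against control-MADM at E13.5, 1 member in place of 0 was called with DESeq2, with all colors in the fit and with no filter. For yellow against green cells, DESeq2 and its size factors each called 2 members in place of 1 in control-MADM at P0, DESeq2 called 2 in place of 0 in Eed-MADM at P0, and with no filter 1 in place of 0 was called in Eed-MADM at E12.5. With the newer quasi-likelihood form, 1 in place of 0 was called for red against green cKO-Eed-MADM cells at P0 and for the step from E12.5 to E13.5, where no filter gave 4. With no filter, Fosb passed the threshold for the change of the cKO-Eed-MADM difference from E16.5 to P0 (1.26, edgeR adjusted p = 0.0335). The counts there were 2 in place of 0, and 1 in place of 0 for the change of the Eed-MADM difference. Both include Atf3, which is not read, since its E16.5 controls held no read and chose the list. The causes were not tested.

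Leaving out 1 library at a time gave 0 to 1 members for cKO-Eed-MADM against control-MADM at E13.5, 2 to 5 in place of 4 for cKO-Eed-MADM against Eed-MADM at E16.5 (2 without cKO-Eed-MADM replicate 2, 3 or 4), 0 to 4 in place of 1 for yellow against green control-MADM cells at P0 (4 without yellow replicate 1), 0 to 1 for red against green cKO-Eed-MADM cells at P0 (1 without red replicate 2) and for the step from E12.5 to E13.5 (1 without E12.5 replicate 3 or 4 or E13.5 replicate 3), and 0 to 2 in place of 3 for that from E13.5 to E16.5. For cKO-Eed-MADM against control-MADM it gave 6 to 8 at E16.5 and 8 to 9 at P0. The counts that involve E16.5 include Atf3, whose values there chose the list.

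Replicate numbers did not pair the libraries: correlations of same-numbered libraries ran from -0.30 to 0.22 at E12.5 and from -0.13 to 0.38 at P0. With the number as a block, 0 members in place of 1 were called for yellow against green control-MADM cells at P0 and 1 in place of 0 from E12.5 to E13.5, while cKO-Eed-MADM against control-MADM had 7 at E16.5 and 8 at P0. For cKO-Eed-MADM against Eed-MADM the block ended the calls of Junb at E16.5 (0.66, edgeR adjusted p = 0.127) and Jun at P0 (0.51, edgeR adjusted p = 0.0530). No scaling moved the median of all genes by over 0.1.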
